A study of Mus musculus with 4 samples.

Results

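Chil1-high cells are barcodes from sorted bone marrow stromal preparations that carry much Chil1 mRNA and little of the genes that mark neighbouring skeletal cell types. They were chosen from measured values. A barcode entered with at least 2000 UMIs (unique molecular identifiers, each standing for 1 captured mRNA molecule), at least 500 genes and a mitochondrial share of UMIs of no more than 10%. Levels in single barcodes are given as u, the UMIs of a gene per 10000 UMIs of the barcode. Chil1 had to reach 25 u, with Clic5 and F13a1 together below 8 u, Pi16 and Dpp4 below 5 u, Thbs4 and Myoc below 30 u, Msmp below 50 u, and Col9a1, Col9a2, Col9a3 and Matn3 together below 20 u. The rule found 482 cells among 21483 barcodes past the minima in 4 libraries.

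Each group was 1 library of C57BL/6 mice, and all cells were sorted in the same way. NHD13Tg mice carry the Nup98-HoxD13 fusion transgene, a model of myelodysplastic syndrome (MDS, a clonal blood disorder with ineffective blood formation), and were paired with the library WT_A1 of WT genotype. The Abcg2-MDS/AML genotype was paired with the library Control, also WT. The labels used here give no ages, no number of animals per library and no account of how the Abcg2 model was made. Femora and tibiae were crushed and digested with collagenase, and CD45- TER119- CD31- CD140a+ CD51+ cells were sorted, so cells of joint, tendon and bone surface could enter beside marrow stroma. With 1 library per group no test between groups was possible, and every interval below is a 95% interval for counting error only.

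Chil1 encodes chitinase-3-like protein 1 (YKL-40, BRP-39 in the mouse), a secreted lectin of the chitinase family that binds chitin without cutting it. Chondrocytes, synovial cells and macrophages are known sources, and it is widely used as a marker of inflamed joints. Mmp3 encodes stromelysin-1, a matrix metalloproteinase that degrades proteoglycans and activates other metalloproteinases. The other label genes are Sfrp2, a secreted Wnt modulator, Dio2, the deiodinase that activates thyroid hormone, Cpxm1, a secreted carboxypeptidase-like protein, and Coch, the secreted matrix protein cochlin.

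Of the label given to the cells, Chil1/Mmp3-positive, the rule itself fixed Chil1. Mmp3 was found more often than in other barcodes in NHD13Tg and Abcg2-MDS/AML but not in WT_A1 and Control, and most of the cells showed none of it. Mmp3 stood at 1524 CPM (counts per 1000000 summed UMIs) in the Chil1-high cells of NHD13Tg, 36.3 in those of WT_A1, 363 in those of Abcg2-MDS/AML and 106 in those of Control. In NHD13Tg a single cell held 78.9% of those Mmp3 UMIs, and 10 of 30 cells had any. In the other barcodes of the same libraries Mmp3 stood at 85.0, 98.6, 66.5 and 46.6 CPM. After each barcode was thinned to 2000 UMIs, an Mmp3 UMI was found in 26.7% of Chil1-high cells of NHD13Tg (12.3 to 45.9%), 0 of 14 in WT_A1 (up to 23.2%), 6.91% in Abcg2-MDS/AML (4.64 to 9.84%) and 3.03% in Control (0.0767 to 15.8%). The same share among other barcodes was 4.83%, 5%, 2.33% and 3%, each from 600 barcodes. The intervals of NHD13Tg and Abcg2-MDS/AML lie above those values, and those of WT_A1 and Control include them.

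Sfrp2 and Coch had 0 UMIs in the Chil1-high cells of NHD13Tg, WT_A1 and Control. In Abcg2-MDS/AML they stood at 9.21 and 92.5 CPM, against 17.4 and 16.2 CPM in the other barcodes. Dio2 stood at 33.3, 9.07, 16.2 and 43.4 CPM in the Chil1-high cells of NHD13Tg, WT_A1, Abcg2-MDS/AML and Control, from 1 to 37 UMIs per library. Cpxm1 stood at 72.1, 18.1, 3.95 and 24.1 CPM in the same order. At 2000 UMIs per cell, none of the 5 label genes other than Chil1 was seen in 19 of 30, 13 of 14, 346 of 405 and 30 of 33 Chil1-high cells (63.3, 92.9, 85.4 and 90.9%), against 82.8, 80.2, 90.7 and 89.5% of other barcodes. No Chil1-high cell showed 3 of them, but at most 1.5% of other barcodes did in any library. Clusters led by these genes held a minority of the Chil1-high cells. NHD13Tg cluster 15, led by Sfrp2, Mfap4 and Ptn with Mmp3, Cpxm1 and Coch among its leading genes, held 170 cells of which 6 were Chil1-high, and WT_A1 cluster 4, led by Sfrp2 and Coch, held 490 cells of which 2 were. Abcg2-MDS/AML cluster 8, led by Mmp3 with Sfrp2 among its leading genes, held 369 cells of which 49 were, 12.1% of the Chil1-high cells of that library. Sfrp2 and Coch are at 0 in 3 libraries and Mmp3 varies between libraries. The cells are therefore called Chil1-high here, with no cell type name.

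**Figure D1:**
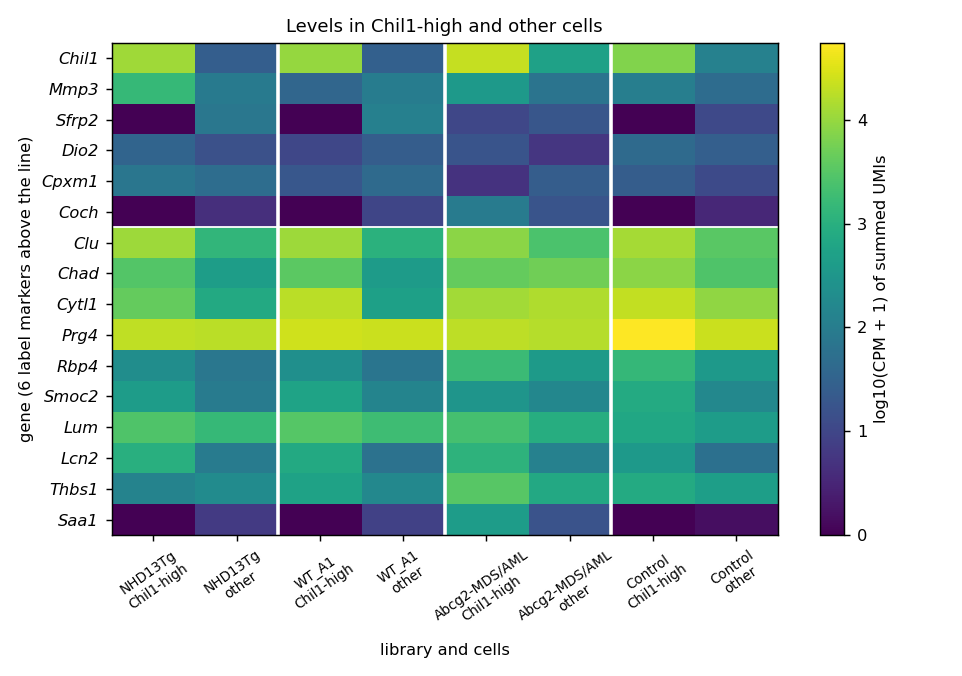
Levels of the 6 label genes (above the white line) and of 10 other genes, as log10(CPM + 1) of summed UMIs, in Chil1-high cells and in all other barcodes of each library. Chil1 separates the cells by construction, Sfrp2 and Coch are at 0 in the Chil1-high cells of 3 libraries, and Clu is higher in Chil1-high cells of all 4.

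Most Chil1-high cells came from 1 library. Abcg2-MDS/AML held 405 of 5586 barcodes (7.25%, 6.58 to 7.96%), against 33 of 5158 (0.640%, 0.441 to 0.897%) in Control. The difference was 6.61 percentage points (5.90 to 7.35), an 11.3-fold higher share. NHD13Tg held 30 of 5766 (0.520%, 0.351 to 0.742%), against 14 of 4973 (0.282%, 0.154 to 0.472%) in WT_A1. That difference of 0.239 points had a counting interval of -0.0158 to 0.495 and so was not detectable at this number of cells. Fewer cells in other classes would also raise a share, and how many cells of each class a mouse had was not measured.

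**Figure D2:**
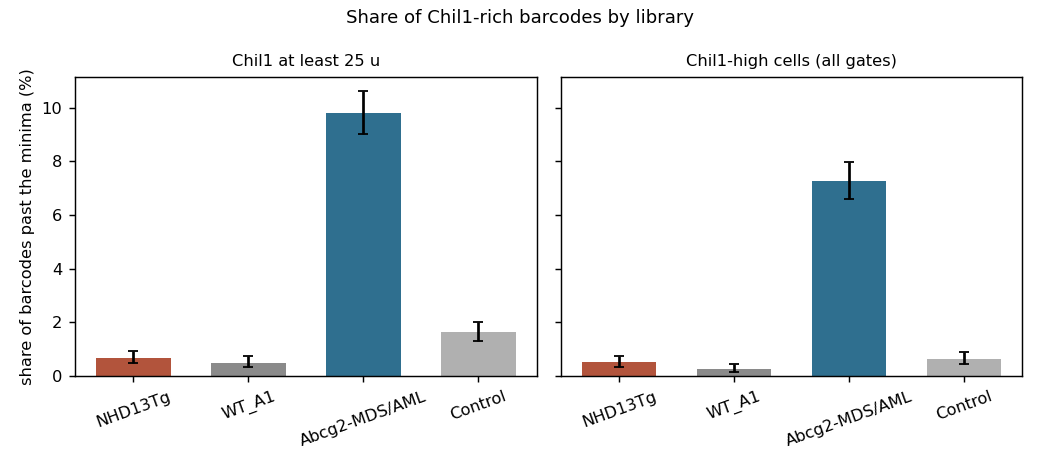
Share of barcodes past the minima, in percent with exact binomial 95% intervals, that reached 25 u of Chil1 (left) and that also passed the 5 exclusion gates (right), by library. The bar of Abcg2-MDS/AML stands at 9.79% and 7.25%, while the other libraries lie between 0.503 and 1.63% on the left and between 0.282 and 0.640% on the right.

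Before the exclusion gates, Chil1 reached 25 u in 39 barcodes of NHD13Tg, 25 of WT_A1, 547 of Abcg2-MDS/AML and 84 of Control. The gates removed 9, 11, 142 and 51 of them, and a barcode could fail several gates. The gate on Thbs4 (thrombospondin 4) and Myoc (myocilin), genes of tendon, removed 138 in all, and the gate on collagen IX and matrilin 3, genes of hyaline cartilage, removed 68, which came from Abcg2-MDS/AML (38) and Control (30). Without these gates the share was 9.79% in Abcg2-MDS/AML, against 1.63% in Control.

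Chil1 itself varied widely among the chosen cells. Its median was 67.0 u in NHD13Tg, 85.8 u in WT_A1, 123 u in Abcg2-MDS/AML and 57.8 u in Control, with the highest cell at 498, 325, 1293 and 314 u. Summed over the cells, Chil1 reached 11720, 9813, 21430 and 7025 CPM, against 24.9, 28.0, 523 and 119 CPM in the other barcodes. The chosen cells held 71.1, 53.3, 76.7 and 24.1% of all Chil1 UMIs of their library, so in Control most Chil1 mRNA lay outside them. Chil1 was also found in free RNA (barcodes with 1 to 100 UMIs) at 62.8, 34.4, 1616 and 111 CPM. At 2000 UMIs per barcode, a Chil1 UMI was seen in 0.667, 0.193, 5.77 and 0.528% of barcodes rich in the marrow reticular genes Adipoq, Esm1 and Lepr, cells with Chil1 at 0.918, 0.822, 22.9 and 3.49 CPM. Free RNA held the most Chil1 in Abcg2-MDS/AML, where most Chil1-high cells lay.

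The number of cells in the smaller libraries depended on the Chil1 gate. With Chil1 at 15 u or more there were 40 cells in NHD13Tg, 21 in WT_A1, 463 in Abcg2-MDS/AML and 56 in Control. At 40 u or more there were 23, 9, 351 and 22. Between 25 and 30 u there were 3 cells in NHD13Tg, 2 in WT_A1, 11 in Abcg2-MDS/AML and 5 in Control. Just outside the gate, between 20 and 25 u, there were 6, 1, 28 and 1. In Abcg2-MDS/AML the cells just inside and just outside had Clu at 9734 and 7167 CPM, Lcn2 at 788 and 466 CPM, Thbs1 at 2390 and 1519 CPM, and Mmp3 at 0 and 751 CPM. The median Chil1-high cell had 5019 UMIs in NHD13Tg, 7779 in WT_A1, 5135 in Abcg2-MDS/AML and 5543 in Control, against 5000, 5450, 4134 and 5053 UMIs in other barcodes. Among barcodes past the minima, 60 barcode sequences occurred in a pair of libraries. No Chil1-high cell shared its barcode with one of another library, and 4 shared it with some other cell there.

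Endothelial, haematopoietic and Schwann cell markers were low in the Chil1-high cells. The 5 endothelial markers (Pecam1, Cdh5, Kdr, Emcn, Egfl7) summed to 0, 9.07, 7.01 and 0 CPM in NHD13Tg, WT_A1, Abcg2-MDS/AML and Control. Other barcodes were also low, at 6.31, 5.91, 4.74 and 11.9 CPM. The 10 haematopoietic markers summed to 83.1, 0, 3.07 and 48.2 CPM, against 1134, 1493, 55.6 and 4038 CPM in other barcodes. Ptprc, Lyz2, Tyrobp and Ltf were at 0 in the Chil1-high cells of all 4 libraries. The 4 Schwann cell markers summed to 11.1, 0, 8.33 and 0 CPM, against 5.47, 5.62, 9.02 and 11.8 CPM. The gene of the sorted antigen CD140a, Pdgfra, had 172, 72.6, 171 and 43.4 CPM, against 255, 279, 240 and 63.3 CPM in other barcodes.

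Beside Chil1, the gene with the largest smallest ratio over the 3 ranked libraries was Clu, although other genes had larger ratios within Abcg2-MDS/AML and Control. These differences from other barcodes are descriptions, since the cells were picked on expression. Clu, which encodes the secreted chaperone clusterin, stood at 11420, 11110, 8307 and 12970 CPM in the Chil1-high cells of NHD13Tg, WT_A1, Abcg2-MDS/AML and Control. The other barcodes had 1306, 1066, 2538 and 3437 CPM of Clu. Chad, which encodes the cartilage protein chondroadherin, stood at 2948, 3546, 4196 and 8366 CPM, against 442, 394, 5283 and 2797 CPM, so in Abcg2-MDS/AML it was not above the rest. The 6 superficial cartilage genes (Msmp, Cytl1, Crispld1, Clu, Cilp, Cilp2) summed to 17260, 30970, 22180 and 38040 CPM, against 3055, 2578, 19700 and 21480 CPM. Sox9, the chondrocyte transcription factor, had 593, 662, 532 and 979 CPM, against 178, 250, 862 and 668 CPM, and was lower than in other barcodes of Abcg2-MDS/AML.

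Genes were ranked by the smallest ratio of Chil1-high cells to other barcodes over the 3 libraries with at least 20 such cells, and after Chil1 and Clu the first was Rbp4. This carrier of retinol stood at 211, 227, 1750 and 1446 CPM in the Chil1-high cells of NHD13Tg, WT_A1, Abcg2-MDS/AML and Control, against 74.1, 68.2, 378 and 360 CPM. Smoc2, a matrix-associated calcium-binding protein, stood at 410, 562, 292 and 805 CPM, against 92.5, 137, 160 and 165 CPM. Lum, the keratan sulphate proteoglycan lumican, stood at 2721, 3138, 2174 and 680 CPM, against 1493, 1842, 923 and 425 CPM. The ranking went on with Scara3, Ccdc80, Cd200, Dab2, Csgalnact2, Uaca, Cpne8, Klf4, Gpx3, Id1, Chka, Egr1, Ldhb, Eif4a2 and Galnt15, all higher in the 3 ranked libraries. In WT_A1, which was not ranked, Dab2, Cpne8, Chka, Egr1, Ldhb and Eif4a2 were not above the other barcodes.

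The 3 ranked libraries also had leading genes of their own. In Abcg2-MDS/AML the leaders after Chil1 included Wfdc2 at 131 CPM against 2.53 in other barcodes, Lcn2, the siderophore-binding lipocalin 2, at 1191 against 121, and Slpi, the secretory leukocyte peptidase inhibitor, at 294 against 34.3. The others were Mmp3, Thbs1, Rbp4, Fgg, Pappa2 (a secreted protease) and Ntn4. Thbs1, which encodes thrombospondin 1, stood at 3320 against 716 CPM there, and Fgg, the fibrinogen gamma chain, at 99.1 against 16.3 CPM. In Control the leaders included Lcn2, Smoc2, Rbp4, Sbsn and Clu. Omd, the bone and tendon proteoglycan osteomodulin, stood at 2252 against 358 CPM, Frzb, a secreted Wnt antagonist, at 299 against 67.8 CPM, and Serpine2, a serine protease inhibitor, at 2801 against 683 CPM. In NHD13Tg they were Clu, Chad, Rasd1, Ndufa4l2, Smoc2, Dio3, Crispld2, Sox9 and Fibin. Summed Lcn2 was higher in the Chil1-high cells than in other barcodes of every library, with 992, 762, 1191 and 376 CPM against 93.5, 60.8, 121 and 55.6 CPM. It was found in only 9 of 30, 5 of 14, 144 of 405 and 12 of 33 cells, so the median cell of each library had none. The ranking left Lcn2 out in NHD13Tg and WT_A1, by its limits on free RNA or on UMIs in 1 cell.

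Promoters of 4 of the named genes are shown, since Chil1 chose the cells, summed Lcn2 was above other barcodes in all 4 libraries, Mmp3 is in the label, and Saa1 was found in 16 of the 405 cells of Abcg2-MDS/AML and in no other library's. Each run is the 250 bases before the RefSeq gene start (mouse GRCm38.p6), on the strand of the gene. Chil1 lies at chr1:134181906-134182155 (plus strand), Lcn2 at chr2:32387740-32387989 (minus strand), Saa1 at chr7:46742981-46743230 (minus strand) and Mmp3 at chr9:7445572-7445821 (plus strand). Capitals mark letters that match NF-kB (GGG, any 5 bases, CC), C/EBP (TTGCNNAA) or AP-1 (TGANTCA) on either strand. STAT (TTCNNNGAA) and the glucocorticoid element (GNACA, any 3 bases, TGTNC) were searched too and had no match in these letters.
Chil1: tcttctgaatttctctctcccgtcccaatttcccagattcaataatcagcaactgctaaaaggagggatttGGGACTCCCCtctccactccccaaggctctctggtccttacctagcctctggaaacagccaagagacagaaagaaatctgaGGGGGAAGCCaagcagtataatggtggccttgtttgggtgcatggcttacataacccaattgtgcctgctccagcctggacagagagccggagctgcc
Lcn2: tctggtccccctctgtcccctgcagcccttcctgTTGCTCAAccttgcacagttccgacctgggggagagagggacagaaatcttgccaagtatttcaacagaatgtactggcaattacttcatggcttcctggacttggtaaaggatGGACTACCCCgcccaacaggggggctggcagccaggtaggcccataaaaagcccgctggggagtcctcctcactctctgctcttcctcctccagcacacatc
Saa1: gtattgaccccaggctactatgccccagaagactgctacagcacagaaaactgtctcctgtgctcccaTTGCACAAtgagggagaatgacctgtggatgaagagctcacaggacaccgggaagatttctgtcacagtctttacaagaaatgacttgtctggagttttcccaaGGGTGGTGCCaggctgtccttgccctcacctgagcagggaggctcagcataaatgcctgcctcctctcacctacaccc
Mmp3: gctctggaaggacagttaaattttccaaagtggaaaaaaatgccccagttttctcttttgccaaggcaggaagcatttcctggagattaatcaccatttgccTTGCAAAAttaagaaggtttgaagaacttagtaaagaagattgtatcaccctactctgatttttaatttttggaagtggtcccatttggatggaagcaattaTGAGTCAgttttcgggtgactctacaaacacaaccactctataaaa
In Chil1 both capital runs match NF-kB, starting 179 and 98 bases before the gene start. Lcn2 and Saa1 each hold a C/EBP match followed by an NF-kB match, and Mmp3 holds a C/EBP match and, 46 bases before its start, an AP-1 match. Over 27025 mouse promoter windows of the same length, 45.4% held the NF-kB letters, 9.55% the C/EBP letters, 6.87% the AP-1 letters, 7.18% the STAT letters and 0.381% the glucocorticoid letters. In all 13 promoters were scanned, those of leading genes of Abcg2-MDS/AML with Saa1, Saa2, Saa3 and Mmp13 added by choice. Of these 8 held NF-kB, 6 C/EBP and 2 AP-1 letters. The C/EBP letters lay in Lcn2, Slpi, Mmp3 and the added Saa1, Saa2 and Saa3, which are related genes. The AP-1 letters lay in Mmp3 and the added Mmp13, so these counts are no measure of enrichment. A match describes the sequence and shows no binding.

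Set against barcodes picked for high Clu and Chad, the Chil1-high cells had less of some joint genes. Clu/Chad cells were barcodes with at least 100 u of Clu and Chad together and Chil1 below the gate. Cilp, the cartilage intermediate layer protein, stood at 1507, 1841, 1363 and 2874 CPM in the Chil1-high cells of NHD13Tg, WT_A1, Abcg2-MDS/AML and Control, against 5208, 4476, 4219 and 6637 CPM in Clu/Chad cells. The related Cilp2, the muscle and tendon gene Mustn1, the ligand Bmp2 and the tetraspanin Cd9 were also lower in all 4 libraries. Lum was higher than in Clu/Chad cells in all 4, at 2174 against 628 CPM in Abcg2-MDS/AML. Emb, an immunoglobulin-family surface protein, was higher in NHD13Tg, Abcg2-MDS/AML and Control and about equal in WT_A1, at 54.4 against 56.6 CPM.

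Among the 7 synovial lining genes Prg4 was high and the others low, for Clic5 and F13a1 by the gate. The list summed to 19950, 25730, 18650 and 55710 CPM in the Chil1-high cells of NHD13Tg, WT_A1, Abcg2-MDS/AML and Control, nearly all from Prg4, against 18130, 23960, 16890 and 23080 CPM in other barcodes. Cd55 stood at 22.2, 0, 7.45 and 0 CPM in the Chil1-high cells of NHD13Tg, WT_A1, Abcg2-MDS/AML and Control, against 617, 644, 464 and 358 CPM in Clic5/F13a1 barcodes. Rgs5, Tspan15, Col22a1, Cystm1 and Sema5a showed the same order in all 4 libraries. Clic5/F13a1 barcodes were picked as high in genes that the gate keeps low in Chil1-high cells. Genes found together with Clic5 and F13a1 are therefore set apart by the choice of cells. The 8 fibroblast genes, Dcn and Lum among them, summed to 32630, 33020, 21850 and 33680 CPM, against 22030, 22690, 21000 and 10520 CPM in other barcodes, but single members were low. Clec3b, which encodes tetranectin, stood at 38.8, 0, 2.63 and 38.6 CPM, against 1196, 1231, 627 and 1973 CPM in barcodes rich in Dpt, Clec3b and Col14a1, a group that these genes define. Mfap5, Sfrp4, Tgfbi and Cd34 were lower in the Chil1-high cells of every library as well. For Mfap5 the levels were 61.0, 63.5, 16.7 and 4.82 CPM against 900, 778, 735 and 946 CPM. These too are differences between sets picked on expression.

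Prg4, which encodes the joint lubricant lubricin, stood at 19910, 25700, 18600 and 55680 CPM in NHD13Tg, WT_A1, Abcg2-MDS/AML and Control, but the other barcodes also had 17710, 23250, 16760 and 22960 CPM. Free RNA held Prg4 at 12820 to 18250 CPM, so the UMIs of Prg4 in any 1 barcode include background. Comp, cartilage oligomeric matrix protein, stood at 6529, 10820, 1653 and 10570 CPM, against 2894, 2919, 1720 and 3734 CPM.

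Within Abcg2-MDS/AML the Chil1-high cells were not uniform. Graph clusters were built in each library without Chil1, the gate genes and the label genes. In Abcg2-MDS/AML cluster 12 of 17, with 244 cells, held 181 of the 405 Chil1-high cells (44.7%), which made up 74.2% of it. Its leading genes were Chil1, Wfdc2, Saa1, Lcn2, Fgg, Thbs1, Atp6v0a4, Cacna1e, Rbp4 and Pappa2. The other Chil1-high cells lay in 13 further clusters, led by cluster 3 (52 cells; Calml3, Lef1, Tubb2b), cluster 8 (49; Mmp3, Mmp13, Slpi), cluster 11 (41; Msmp, Frzb, Col10a1), cluster 9 (34; Cd14, Prg4, Cilp) and cluster 4 (20; Fgf9, Angptl7, Htra4).

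**Figure D3:**
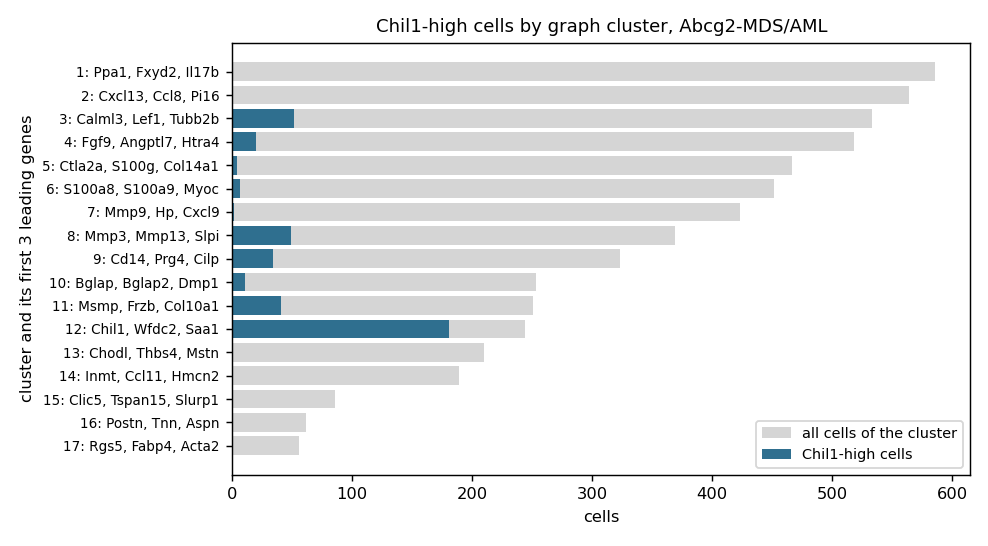
Cells per graph cluster of Abcg2-MDS/AML (grey) and the Chil1-high cells among them (blue), with the first 3 leading genes of each cluster. Cluster 12 is the only cluster of this library in which Chil1-high cells are the majority, with 181 of 244.

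In the other libraries no cluster had a majority of Chil1-high cells, but with 14 to 33 such cells per library there was little room for one. The 30 cells of NHD13Tg lay in 8 of 27 clusters, with 9 in cluster 9 (Clu, Chad, Npy), 6 in cluster 15 and 6 in cluster 18 (Msmp, Cytl1, Serpina1a). The 14 cells of WT_A1 lay in 4 clusters, with 4 each in clusters 5, 6 and 16. In Control 14 of 33 cells lay in cluster 4, led by Frzb, Sparcl1 and Omd, and 6 each in clusters 7 and 13. Chil1, Wfdc2 and Pappa2, leading genes of Abcg2-MDS/AML cluster 12, were also among those of Control cluster 9 (285 cells; Sfrp5, Spon1, Efemp1, Notum, Lef1). In this Control cluster 25 cells reached 25 u of Chil1 but only 2 passed the exclusion gates. Clusters were built on expression in the same cells, so levels inside and outside them are given without a test.

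Inside cluster 12 the median Chil1-high cell had 248 u of Chil1, against 69.9 u in the 224 Chil1-high cells outside it. Mt3, Wfdc2, Fgg and Saa1 were the genes most above the rest inside it. Over all Chil1-high cells of this library Saa1 was found in 16 cells, Saa3 in 5 and Hp in 28, so their levels rest on few cells. For Saa1 and Hp a single cell held a large part of the UMIs. Saa1, serum amyloid A1, stood at 802 CPM inside and 88.1 CPM outside, Wfdc2 at 272 and 14.4 CPM, Fgg at 197 and 18.4 CPM, and Mt3, a metallothionein, at 61.0 and 2.40 CPM. Serpina3n, a secreted protease inhibitor, stood at 1082 and 431 CPM, Lbp, the lipopolysaccharide-binding protein, at 2100 and 1004 CPM, Thbs1 at 4621 and 2244 CPM, and Rbp4 at 2259 and 1330 CPM. Other genes were lower inside, among them Hp, haptoglobin, at 7.75 CPM inside and 1156 CPM outside, and Saa3 at 0.969 and 565 CPM. The same held for Prg4 at 2917 CPM inside and 31570 CPM outside, Cytl1 (cytokine-like 1) at 5437 and 17960 CPM, Angptl7 at 499 and 2732 CPM, and Mmp13 (collagenase-3) at 116 and 973 CPM. Clu (7247 inside, 9183 outside), Chad (3793, 4529) and Sox9 (546, 521 CPM) were much closer. Median UMIs per cell were 5330 inside and 5011 outside.

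Levels of some genes differed along the range of Chil1 in Abcg2-MDS/AML, for Rbp4 in steady order. Among barcodes of this library that passed the exclusion gates, 2547 had Chil1 below 1 u, 495 had 1 to 10 u, 112 had 10 to 25 u, 181 had 25 to 100 u, 127 had 100 to 300 u and 97 had 300 u or more. In that order Lcn2 stood at 92.6, 164, 469, 477, 1764 and 1708 CPM, and Rbp4 at 311, 612, 841, 1276, 1884 and 2388 CPM. Thbs1 stood at 567, 966, 1650, 3029, 2886 and 4323 CPM, with 2 ranges nearly level. Saa1 stood at 13.9, 15.3, 3.12, 40.4, 247 and 1229 CPM, from the few cells named above in the ranges past the gate. Prg4 had the opposite course at the top, with 19940, 32440, 46730, 31840, 11110 and 5257 CPM. Cytl1 followed it, with 9901, 21730, 24660, 16140, 12840 and 5186 CPM, while Clu stayed between 8197 and 8499 CPM in the 3 ranges above the gate. Mmp3 had 51.6, 143, 355, 271, 517 and 336 CPM. All values come from 1 library, share its free RNA and are given without a test.

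**Figure D4:**
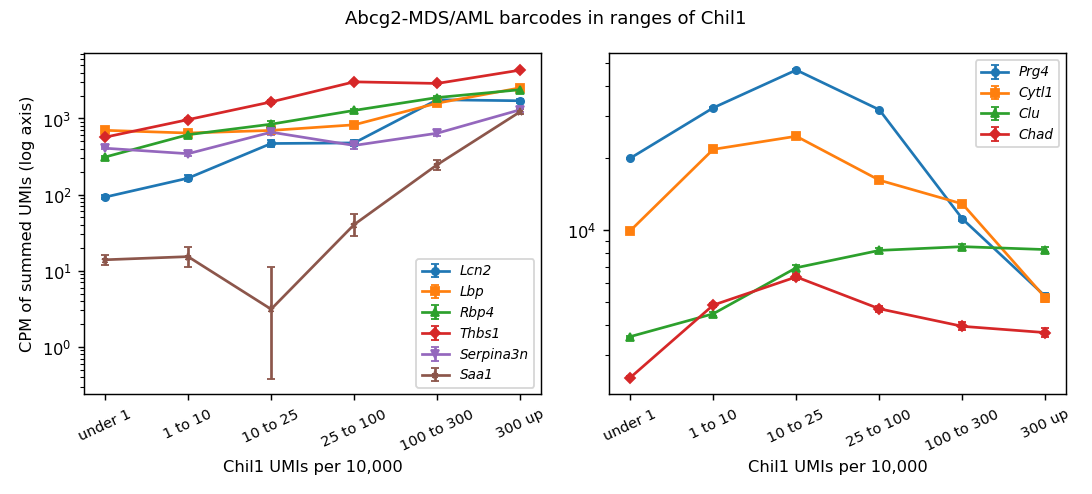
CPM of summed UMIs (log axis, bars for 95% Poisson intervals) in barcodes of Abcg2-MDS/AML past the exclusion gates, by range of Chil1 in UMIs per 10000. Left, Thbs1, Rbp4, Lbp and Lcn2 are higher in the upper ranges and Saa1 reaches 1229 CPM in the highest. Right, Prg4 and Cytl1 peak at 10 to 25 u and are lowest at 300 u and above, while Clu is level above the gate.

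The Chil1-high cells of Abcg2-MDS/AML were then set against those of Control, gene by gene. Genes were counted by size and not by a test: the CPM had to differ 2-fold or more, and the counting interval of the ratio had to exclude 1. Of 5123 genes with at least 20 CPM in 1 of the libraries, 400 were higher (7.81%) and 655 lower (12.8%), 20.6% in either direction. The split depends on scaling. When the sums were scaled by the median ratio over genes, which moved all log2 ratios by 0.28, 662 genes were higher and 419 lower. Free RNA reached the level in the cells for 260 of the 1055 genes (5.08% of those measured), and in 218 (4.26%) a single cell held over 25% of the UMIs. The 33 cells of Control hold 207399 UMIs, against 2281160 in the 405 cells of Abcg2-MDS/AML, so the precision of each ratio is set by Control. The cells compared also lay in unlike clusters. Of those of Control, 42.4% lay in cluster 4, with Frzb, Omd, Ibsp, Wif1, Cytl1 and Crispld1 among its leading genes. Of those of Abcg2-MDS/AML, 44.7% lay in cluster 12 and 12.1% in cluster 8, which Mmp3, Mmp13 and Slpi lead. Whether a ratio comes from this mix or from a change within 1 kind of cell was not tested.

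Among the largest ratios, Mmp13 had 585 CPM in 48 cells of Abcg2-MDS/AML and 0 UMIs in Control, at least 40.5-fold higher. Slpi had 294 CPM in 55 cells against 0, at least 20.3-fold higher, and Fgg 99.1 CPM in 33 cells against 0, at least 6.85-fold higher. These bounds cover counting error only, and the spread of a gene over few cells could place the true fold below them. Pdk4, which inhibits pyruvate dehydrogenase, had 114 CPM against 0, Slc43a1, an amino acid transporter, 84.2 against 0, and Hmox1, haem oxygenase 1, 80.2 against 0. Flrt2, a guidance receptor ligand, had 58.3 CPM against 0. Fkbp5, a glucocorticoid-induced co-chaperone, had 195 CPM against 4.82 (log2 ratio 4.76, 2.85 to 10.7). Most of these were not limited to the Chil1-high cells. In all other barcodes of Abcg2-MDS/AML against those of Control, Mmp13 stood at 375 against 104 CPM, Pdk4 at 104 against 5.56, Fkbp5 at 150 against 9.72, Hmox1 at 65.1 against 29.4 and Fgg at 16.3 against 1.01 CPM.

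The metallothioneins Mt1 and Mt2, zinc- and copper-binding proteins, differed most among abundant genes. Mt1 reached 14480 CPM in Abcg2-MDS/AML against 704 in Control (log2 ratio 4.36, 4.13 to 4.61), and Mt2 at 4316 against 207 CPM (4.36, 3.95 to 4.85). Other barcodes had 10120 against 883 CPM of Mt1, and free RNA 12120 against 976 CPM. With free RNA subtracted, at 4.82% of the UMIs in Abcg2-MDS/AML and 1.40% in Control, the log2 ratio of Mt1 was 4.38. The list of metallothionein and iron genes had 6 of 9 members at least 1.5-fold higher and none lower (median log2 ratio 2.18), where 5.96% of all 9100 measured genes were higher and 10.7% lower by that rule, with a median of -0.20. Fth1, ferritin heavy chain, stood at 41760 against 9229 CPM, Slc39a14, a zinc and iron importer, at 360 against 48.2 CPM, and Slc40a1, the iron exporter, at 38.6 against 9.64 CPM from 2 UMIs in Control, a ratio that turned round with the Chil1 gate alone. Summed over the list, levels were 63090 against 12450 CPM in Chil1-high cells and 34080 against 12400 CPM in all other barcodes.

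Of the acute-phase genes, 8 of 12 measured were higher and 1 lower (median 1.72). Serum amyloid genes were found in few cells of Abcg2-MDS/AML and not in Control. Saa1 had 411 CPM in 16 of 405 cells, with 31.5% of its UMIs in 1 cell, Saa2 126 CPM in 12 cells, and Saa3 310 CPM in 5 cells, each against 0 in Control. Hp stood at 636 against 183 CPM, with 47.9% in 1 cell. Lcn2 stood at 1191 against 376 CPM (log2 ratio 1.65, 1.34 to 2.01) in 144 cells. C3, the central complement component, stood at 430 against 82.0 CPM, Serpina3n, a secreted protease inhibitor, at 726 against 241, and Steap4, a metalloreductase, at 94.7 against 24.1 CPM. Serpina3g was the lower gene, with 3 UMIs in Abcg2-MDS/AML and 11 in Control, all in 1 cell. Summed over the list, levels were 4121 against 1143 CPM in Chil1-high cells, 1598 against 480 CPM in other barcodes and 622 against 275 CPM in Clu/Chad cells.

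Complement genes had 5 of 9 measured members higher and none lower (median 1.47, or 1.40 with the gene at 0 in Control set to its bound). Among them were C1ra at 121 against 24.1 CPM, C1s1, C3 and Serping1, and for C1s1 and Serping1 free RNA reached the level in the cells. The contrast was not limited to the Chil1-high cells. Summed over the complement list, levels were 1482 against 627 CPM in Chil1-high cells and 2536 against 619 CPM in other barcodes. Of the genes of interleukin 6 family signalling, 4 of 9 were higher and none lower (median 0.76). These were the receptors Osmr at 300 against 62.7 CPM, Il6ra at 185 against 28.9 CPM and Lifr at 90.3 against 33.8 CPM (at the level of free RNA), and the transcription factor Stat3 at 203 against 77.2 CPM. Socs3, the feedback inhibitor of this pathway, stood at 738 against 583 CPM and was not taken by the rule. Among the metalloproteinases 3 of 5 were higher, Mmp2, at the level of free RNA, and Mmp3 beside Mmp13, with Mmp3 at 363 against 106 CPM in 38 and 3 cells.

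The genes of hormone and retinoid response were split, with 3 of 13 higher and 2 lower (median 0.68, or 0 with genes at 0 in Control at their bound). The higher genes were Fkbp5, Tsc22d3 (glucocorticoid-induced leucine zipper) at 1248 against 236 CPM, and Per1, a clock gene, at 34.2 against 4.82 CPM (at the level of free RNA), all known to be induced by glucocorticoids. The lower ones were Nr3c1, the glucocorticoid receptor, at 82.9 against 150 CPM, and Aldh1a2, with 0 UMIs against 2. Of the p53 and growth-arrest genes 6 of 11 were higher and 2 lower (median 0.67). Cdkn1a, the cell cycle inhibitor p21, stood at 740 against 304 CPM and Gas6 at 324 against 82.0, while Mdm2 stood at 28.1 against 91.6 and Gas1 at 591 against 1379 CPM.

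All 6 superficial cartilage genes were lower in Abcg2-MDS/AML (median -1.54), 4 of 6 under the median-ratio scaling. Clu stood at 8307 against 12970 CPM in Control, Cytl1 at 12290 against 20490, Cilp at 1363 against 2874, Cilp2 at 60.5 against 241 and Crispld1 at 128 against 1244 CPM. Msmp, which the gates limit, was the sixth. Summed, the list stood at 22180 against 38040 CPM in Chil1-high cells, but at 48290 against 44820 CPM in Clu/Chad cells. Among small leucine-rich proteoglycans 7 of 11 were lower and 1 higher (median -0.82), 5 lower under the other scaling. Dcn, decorin, stood at 16540 against 25950 CPM, Omd at 635 against 2252 and Chad at 4196 against 8366, and Lum was the higher one at 2174 against 680 CPM. Fibrillar collagens were lower for 5 of 8 (3 under the other scaling), with Col2a1 at 807 against 1827 and Col3a1 at 137 against 347 CPM, both at the level of free RNA. Summed, fibrillar collagens stood at 2832 against 5323 CPM in Chil1-high cells and at 7108 against 14550 CPM in other barcodes. The proteoglycans stood at 25230 against 40250 CPM and at 23110 against 13970 CPM in the same order.

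Of genes outside these lists or in others, Comp stood at 1653 against 10570 CPM (log2 ratio -2.68, -2.75 to -2.60) and Ibsp, bone sialoprotein, at 4098 against 12980 CPM. Prg4 stood at 18600 against 55680 CPM, with 25.6% of the Control UMIs in 1 cell. Of the secreted Wnt modulators 4 of 13 were lower (median -0.48), Wif1 at 487 against 1610, Frzb at 97.3 against 299, Dkk3 at 13.6 against 43.4 and Rspo3 at 1.75 against 28.9 CPM. Summed, this list stood at 747 against 2107 CPM in Chil1-high cells and at 420 against 865 CPM in other barcodes. Of the hypoxia and glycolysis genes 9 of 17 were lower and 2 higher (median -0.67), 6 lower and 3 higher under the other scaling. The enzymes Pkm (187 against 526 CPM), Aldoa (151 against 357), Tpi1 (111 against 275) and Ldha (246 against 535) were lower. Ddit4, an inhibitor of mTOR signalling, was higher at 372 against 28.9 CPM, and so was Hk2, hexokinase 2, at 163 against 72.3 CPM. Beside Crispld1, the lowest ratios included those of Dpp3, Ak1, Stk38l, Fam69a, Kazald1, Cebpzos, Gramd2 and Retsat, from 6 to 25 UMIs in Control.

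**Figure D5:**
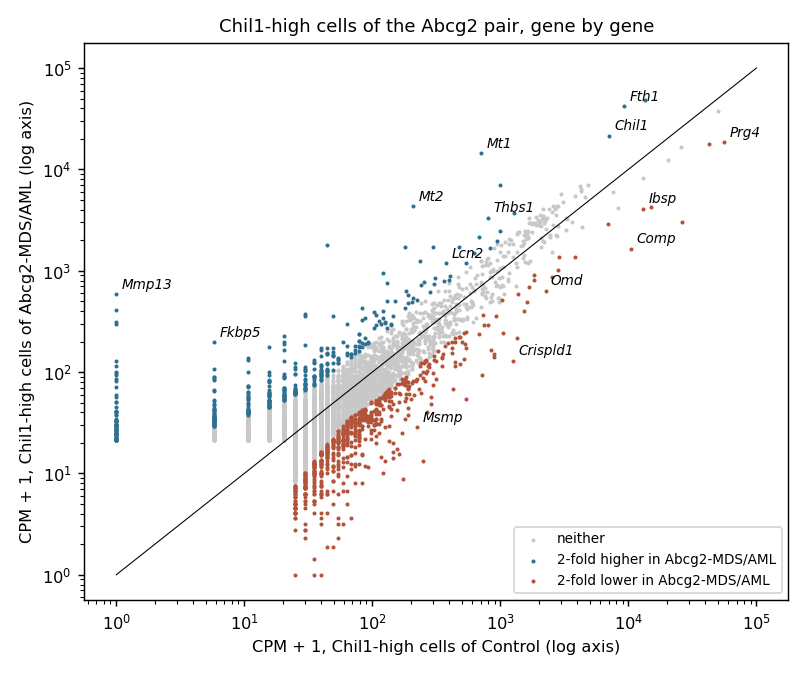
CPM + 1 of each gene in Chil1-high cells of Abcg2-MDS/AML (vertical, log axis) and of Control (horizontal, log axis), with the diagonal of equal levels. Blue genes are 2-fold higher and red genes 2-fold lower in Abcg2-MDS/AML by the size rule, with Mt1, Mt2, Fth1, Thbs1 and Chil1 above the diagonal and Comp, Prg4, Ibsp and Crispld1 below it. Genes at 0 UMIs in Control, Mmp13 among them, form the column at the left edge.

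Genes that lead the Chil1-high cells within Abcg2-MDS/AML also differed from Control in part. Thbs1 stood at 3320 against 805 CPM (log2 ratio 2.04, 1.82 to 2.27), Ntn4, the basement membrane protein netrin 4, at 359 against 28.9 CPM (3.52, 2.50 to 5.08), Lbp at 1500 against 617 CPM (1.28, 1.03 to 1.55) and Wfdc2 at 131 against 9.64 CPM (3.45, 1.90 to 6.82). Angptl7, an angiopoietin-like protein of joint tissue, stood at 1721 against 477 CPM. Rbp4, in contrast, stood at 1750 against 1446 CPM and was not taken by the rule. Chil1 was 21430 against 7025 CPM (log2 ratio 1.61), a value that the gate on Chil1 bears on directly.

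The NHD13 pair rested on 30 cells with 180436 UMIs in NHD13Tg and 14 cells with 110259 UMIs in WT_A1. The size rule took 199 of 5740 genes as higher (3.47%) and 167 as lower (2.91%), 6.38% in either direction. Scaling by the median ratio, a shift of 0.11, left 138 lower genes and put 64.3% on the higher side, against 54.4% before. In 192 of the 366 genes (3.34% of those measured) a single cell held over 25% of the UMIs, and in 84 (1.46%) free RNA reached the level in the cells. The main genes of the cells did not differ by the rule. Clu stood at 11420 against 11110 CPM (log2 ratio 0.04, -0.06 to 0.14), Chad at 2948 against 3546 CPM (-0.27, -0.46 to -0.07), Lcn2 at 992 against 762 CPM, Rbp4 at 211 against 227 CPM and Chil1 at 11720 against 9813 CPM (0.26, 0.15 to 0.36).

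Col14a1, a fibril-associated collagen, was the named higher gene with the most UMIs, at 648 CPM in 15 of 30 cells of NHD13Tg against 45.4 CPM in 3 of 14 cells of WT_A1 (log2 ratio 3.71, 2.57 to 5.49). The others had 9 to 17 UMIs in NHD13Tg and 0 in WT_A1: Ezr (ezrin), AI607873, Zmym4, Spry2, Lrrc16a, Kdm5b, Ascc3, Map1a and B9d2. For Ezr the lower limit of the log2 ratio was 1.33. Bmp7, a bone morphogenetic protein, had 0 UMIs in NHD13Tg and 8 in WT_A1, with an upper limit of -1.48 for the log2 ratio. Nifk, Dync1li2, Dock11, Atp6v0a2, Sfmbt1 and Trim39 had 0 against 4 or 5 UMIs. Rev3l, Ei24 and Eif4a3 had 2 UMIs in NHD13Tg against 8 or 9 in WT_A1.

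By lists, where 2.34% of 10573 genes were at least 1.5-fold higher and 1.92% lower (median 0.03), 7 of 8 marrow reticular genes were higher in NHD13Tg (median 2.44). Cxcl12, the chemokine of the haematopoietic niche, stood at 1075 against 191 CPM, Lepr at 166 against 27.2 and Kitl, stem cell factor, at 194 against 0 CPM with all 35 UMIs in 3 cells. For all 7 genes free RNA reached the level in the cells. The whole list summed to 2239 against 481 CPM in the Chil1-high cells, to 11130 against 4156 CPM in other barcodes and to 9579 against 4988 CPM in free RNA, with Esm1 and Kitl at 0 in WT_A1. Hp, 1 of the 7, had a log2 ratio of -0.86 with free RNA subtracted, at 6.85% of the UMIs in NHD13Tg and 0% in WT_A1, so the subtraction took from NHD13Tg alone. Metallothionein and iron genes had 2 of 9 higher, Mt1 at 8014 against 3292 CPM (log2 ratio 1.28, 1.12 to 1.45) and Mt2 at 2566 against 1088 CPM.

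On the lower side of that pair, 4 of 9 fibrillar collagens were taken (2 under the median-ratio scaling). Col2a1 stood at 200 against 1279 CPM, with 61.0% of the WT_A1 UMIs in 1 cell, and Col1a1, Col3a1 and Col5a1 were lower with 35.8 to 68.8% in 1 cell and at the level of free RNA, and Col5a1 turned round at a Chil1 gate of 40 u. Cytl1 stood at 4151 against 17680 CPM, with 39.2% in 1 cell, and was the only one of 5 measured superficial cartilage genes past the rule. Of the acute-phase genes 3 of 11 were higher, Serpina3n at 748 against 426 CPM, Cp and Hp. Cp and Hp were at the level of free RNA. Saa1 and Saa2 had 0 UMIs in both libraries.

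Both pairs have their own WT library, so they share no samples. Of 4490 genes measured in both, 34 were higher in both (0.757%) and 29 lower in both (0.646%). Those that passed the rule on naming were Ddit4, Fzd1, Nbl1, Txnip, Mt1, Cxcl14, Crebrf, Srsf5, Mt2 and Hk2 on the higher side and Rhoc on the lower. Ddit4 stood at 200 against 54.4 CPM in the NHD13 pair and 372 against 28.9 CPM in the Abcg2 pair. Txnip, a thioredoxin inhibitor and regulator of glucose uptake, stood at 272 against 99.8 CPM and at 1722 against 178 CPM, and in the NHD13 pair it turned round after thinning. Nbl1, a secreted BMP antagonist, stood at 1186 against 381 CPM and at 505 against 130 CPM, and Fzd1, a Wnt receptor, at 166 against 45.4 CPM and at 88.6 against 4.82 CPM. The chemokine Cxcl14 stood at 1325 against 508 CPM and at 493 against 203 CPM. Rhoc, a small GTPase, stood at 99.8 against 245 CPM and at 62.7 against 140 CPM.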

How the data were processed

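Single-cell RNA sequencing (Chromium 3' v3.1 chemistry, NextSeq 500) covered 4 libraries of sorted bone marrow mesenchymal stromal cells, 1 per group, per the labels' protocols. The authors deposited raw matrices of UMI counts (27998 genes, all barcodes, whole numbers without normalization). Cell Ranger 3.1.0 and Seurat 3.2.3 are named per the submitters' processing notes, while the sources used here do not give the genome build. Library totals ran from 36133716 to 46033790 UMIs.

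Barcodes were kept by the minima and gates of the rule, with no doublets removed in the main values. Scrublet scores (scanpy 1.11.5) had a median of 0.0459 in Chil1-high cells and 0.0347 in other barcodes of NHD13Tg, 0.0537 and 0.0439 in WT_A1, 0.0411 and 0.0369 in Abcg2-MDS/AML, and 0.0494 and 0.0366 in Control. UMIs were summed per library and given as CPM. Log2 ratios had 0.5 added to each count. Intervals at the 95% level are Poisson for levels, Clopper-Pearson for shares and conditional binomial for ratios, and cover counting error only. Where a list median is given with genes at their bound, the bound uses 3 counts in the summed library. It leaves out the spread of UMIs among cells. The interval of a difference of shares is the root of the summed squares of the distances from each share to its own limit. Clusters used 2000 variable genes, 30 components, 15 neighbours and Leiden resolution 1 within each library. The calculations were tested on simulated Poisson counts first, which hold no spread among cells. The size rule took 138 of 5477 unchanged genes in the setting of the NHD13 pair and 133 of 4583 in that of the Abcg2 pair. Of 50 genes set 2-fold apart it took 14 and 17, and of 50 set 8-fold apart 44 and 50. Promoters came from RefSeq windows.

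Members and gene lists were chosen with earlier results of these data known. Named genes are the label and gate genes, the 20 leading genes over 3 libraries, 10 per direction against neighbouring groups, 10 per direction and pair, up to 10 shared by both pairs, and the members of described lists with the highest CPM. The ranking against Clu/Chad cells and the leaders of single libraries were added after their values were seen, as were the other genes named to account for a count. Rankings left out genes at the level of free RNA, with over 25% of UMIs in 1 cell, or mitochondrial, sex-linked, clone-named or immunoglobulin genes. The ranking inside against outside cluster 12 was an exception. It kept Saa1 and Hp, each with over 25% of UMIs in 1 cell. Alternatives changed the minima, gates, scaling, prior count and thinning. Some genes that these rules would name are not reported here.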

Additional observations from a re-analysis of the deposited data

Results flagged for a closer look

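In 3 genes the Chil1-high cells of the pairs lay on opposite sides of the 2-fold size rule, and the difference between the pairs was not tested. Clcn4, a chloride/proton exchanger, had a log2 ratio of 2.35 (NHD13Tg over WT_A1) and -1.38 (Abcg2-MDS/AML over Control). Bcr had 3.54 and -1.66 in the same order, with 0 UMIs in WT_A1. Oxct1, an enzyme of ketone body use, had 1.37 and -2.51.

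Barcodes with at least 1000 but under 2000 UMIs stayed out of the report. In Abcg2-MDS/AML 34 of 1046 such barcodes (3.25%, 2.26 to 4.51%) passed the same gates, against 5 of 837 in Control (0.597%, 0.194 to 1.39%). In NHD13Tg 2 of 520 did, against 0 of 421 in WT_A1, which allows a share of up to 0.872% by its interval.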

How the results depend on the processing

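The share of Chil1-high cells stayed higher in Abcg2-MDS/AML than in Control under all 7 alternatives. The difference moved to 5.86 points with Chil1 at 40 u or more and to 8.16 points with the Chil1 gate alone, and lay between 6.50 and 7.29 points under the other 5. In the NHD13 pair it lay between 0.174 and 0.271 points. The number of genes past the size rule moved to 124 in the NHD13 pair when each cell was thinned to 2000 UMIs before summing, and in the Abcg2 pair to 597 with that thinning and to 681 with a minimum of 50 CPM. Both settings leave fewer counts or genes by construction. Otherwise it lay between 304 and 387 and between 897 and 1187. Leaving out the cell with the most UMIs per gene, chosen after seeing the data, gave 659 higher and 338 lower genes in the Abcg2 pair and 227 and 88 in the NHD13 pair, and by construction it takes a larger part of the UMIs from the library with fewer cells. Without the cells of cluster 12, also chosen after seeing the data, 382 genes were higher and 515 lower than in Control.

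Single genes that turned direction were Col5a1 (0.42) and Fmod (1.10) in the NHD13 pair at 40 u, Hp there (-0.86) with free RNA subtracted in NHD13Tg alone and Txnip there (-0.17) after thinning. In the Abcg2 pair they were Aspn (2.02) at 40 u, Slc40a1 (-1.09) with the Chil1 gate alone, Nfatc1 (1.05) after thinning and Fmod (0.11) without its top cell; the cause was not tested. Of the other single-gene values, 1316 kept direction and side of the rule in the Abcg2 pair and 104 lost the rule, and 592 and 111 did so in the NHD13 pair. No paired analysis was possible because each group has 1 library. Depth limits the NHD13 pair most, with 14 cells in WT_A1, and differences between groups have no replicate check.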
